A study of Mus musculus with 8 samples.

Results

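Subunits of the receptors for glutamate, GABA and glycine were examined in the retinas of aged mice. Members were the probes whose accession led to a gene symbol of the ionotropic glutamate receptors (Gria, Grid, Grik and Grin), the metabotropic glutamate receptors (Grm), the GABA-A receptors including the rho subunits (Gabr) or the glycine receptors (Glra and Glrb). Grm6, which belongs to the ON bipolar cell pathway, was left out. The array carried 77 probes for 49 such genes, out of 22911 genes that could be named, and 69 probes of 46 genes gave a measurement that could be tested, each of these genes by a probe well above background on all 8 arrays. Total retinal RNA was measured in 4 samples labelled homozygous Mrp4 knockout, here called Mrp4-null, and in 4 wild-type samples, all from mice aged 46 to 55 weeks for which the labels name no treatment. Mrp4 is the protein encoded by Abcc4, a membrane transporter that exports cyclic nucleotides, prostanoids and drugs from cells. According to the methods the knockout line was kept on a C57BL/6J background, and the strain of the wild-type mice is not given there. The tissue is said to come from 3 mice, and the sources used here do not settle whether a sample was a pool, so p-values measure the spread between these samples, part of which may be technical.

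Glutamate is the transmitter of photoreceptors, bipolar cells and ganglion cells, whereas GABA and glycine are released mainly by amacrine cells, with GABA also linked to horizontal cells. Ionotropic receptors are channels built from several subunits and open within milliseconds, while metabotropic receptors act through G proteins. In the retina the choice of subunit sets how long and how strongly a synapse conducts, the rho receptors of bipolar cell terminals being the usual example of a slow and sustained GABA response.

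The signal of each array was a fluorescence intensity, given here as log2 after quantile normalization, which sets the distribution of signal equal on all arrays. Fold changes are differences of the mean log2 signal, arrays labelled Mrp4-null minus wild-type, and a gene with several probes is described by the probe with the highest mean signal. Of the 56605 probes, 66.0% to 69.9% stood well above background on single arrays, no spot was saturated, and the 75th percentile of the processed signal ran from 497 to 786, lowest on Mrp4-null sample 2 and wild-type sample 3. The 8 arrays shared 1 slide on which the genotypes occupied different rows, so genotype and slide row cannot be told apart. The check of the targeted gene went against the labels: the Abcc4 probe read 10.75 ± 0.09 on the arrays labelled Mrp4-null and 6.83 ± 0.29 on the wild-type arrays (log2 signal, SD, n = 4 each). Where the probe lies relative to the deleted stretch is not given in the sources used here, and every direction below is therefore that of the labels. Rod markers averaged between 16.01 and 16.19 on each of the 8 arrays. Lens genes were also present, and their mean log2 signal ran from 6.17 to 8.51 on the Mrp4-null arrays and from 7.36 to 9.73 on the wild-type arrays.

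Gabra2, which encodes an alpha subunit of the GABA-A receptor, was the only member that passed the test, and it was 1.78-fold higher on the arrays labelled Mrp4-null. No other receptor subunit passed, in either direction. Called here means that the fold change reached 1.5 and that limma's p, adjusted over all 37085 tested probes, was under 0.05, a rule met by 0.545% of those probes and by 1 of the 69 member probes. Of the 46 genes, 37 differed by less than 0.2 on the log2 scale. By each gene's brightest probe, the fold changes of the members ran from -0.39 for Grid1 to 0.83 for Gabra2, with a median of -0.03 and 19 of 46 genes above 0 (41.3%). Over all named genes tested the median was -0.01 with 46.3% above 0, and 46.8% of all tested probes were above 0. An unadjusted p under 0.05 in limma was seen for 6 member probes of 69 (8.70%), beside 6.46% of all tested probes. For 3 member probes (4.35%) no array of one genotype lay within the range of the other, beside 4.79% of all tested probes. Both shares lie close to those of the whole table. The median SD within genotypes was 0.18 for the members and 0.16 for all named genes, and the standard error of a member gene's fold change lay between 0.07 and 0.28.

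**Figure D1:**
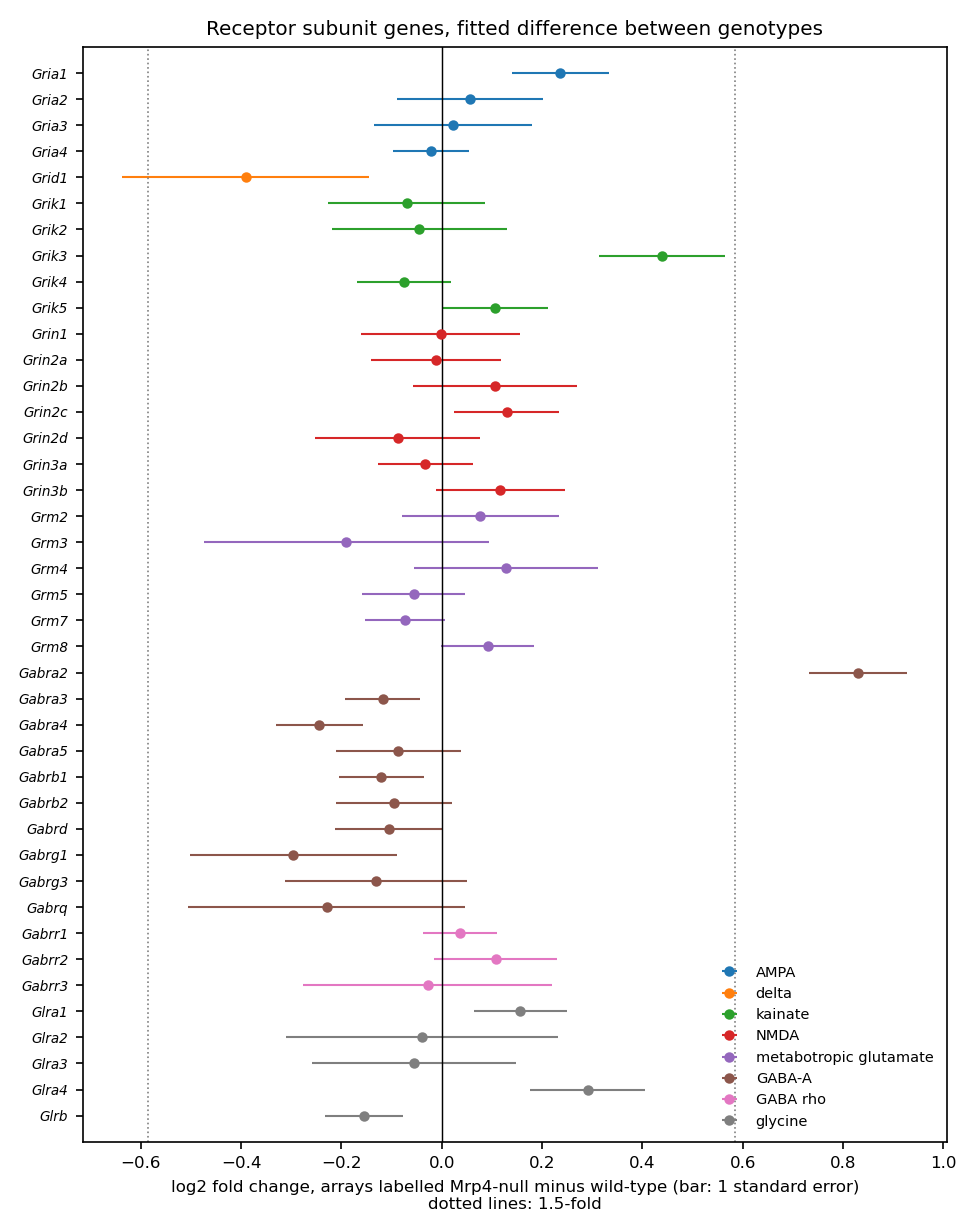
Fitted log2 fold change of 41 of the 46 receptor subunit genes, arrays labelled Mrp4-null minus wild-type, with bars of 1 standard error and colours by receptor family; the dotted lines mark 1.5-fold in either direction. Gabra2 at 0.83 is the only gene shown beyond a dotted line, and the others lie between -0.39 for Grid1 and 0.44 for Grik3.

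GABA-A receptors are pentamers, most often of alpha, beta and gamma subunits, and the alpha subunit sets the affinity for GABA and the response to benzodiazepines. Gabra2 lies on chromosome 5 in a cluster with Gabrg1, Gabra4 and Gabrb1, and its transcript level is known to differ among inbred mouse strains. The windows around the annotated starts of these 4 genes are shown, each of 250 bases before and 50 after the start. They are read along the gene's strand from RefSeq (GRCm38.p6). This is a reference sequence and not that of these mice, so the windows hold no comparison of the genotypes. The windows are chr5:70842568-70842867 on the minus strand for Gabrg1, chr5:71095800-71096099 on the minus strand for Gabra2, chr5:71657671-71657970 on the plus strand for Gabrb1, which has a further annotated start not shown, and chr5:71658259-71658558 on the minus strand for Gabra4. Capitals mark TAATCC, the core bound by the photoreceptor factor Crx and its relatives, and GGGCGG, the GC box, each on either strand.
Gabrg1: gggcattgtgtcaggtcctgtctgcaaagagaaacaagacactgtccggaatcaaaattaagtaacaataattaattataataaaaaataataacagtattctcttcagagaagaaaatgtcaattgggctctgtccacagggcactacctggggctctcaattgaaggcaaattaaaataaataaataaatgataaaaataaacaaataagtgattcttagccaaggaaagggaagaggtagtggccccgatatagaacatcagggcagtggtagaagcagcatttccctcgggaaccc
Gabra2: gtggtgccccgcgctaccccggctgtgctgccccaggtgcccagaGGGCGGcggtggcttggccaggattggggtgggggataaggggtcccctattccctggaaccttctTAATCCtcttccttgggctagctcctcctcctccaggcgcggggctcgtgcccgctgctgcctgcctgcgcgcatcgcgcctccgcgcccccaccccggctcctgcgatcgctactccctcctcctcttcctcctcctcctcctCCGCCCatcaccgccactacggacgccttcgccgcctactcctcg
Gabrb1: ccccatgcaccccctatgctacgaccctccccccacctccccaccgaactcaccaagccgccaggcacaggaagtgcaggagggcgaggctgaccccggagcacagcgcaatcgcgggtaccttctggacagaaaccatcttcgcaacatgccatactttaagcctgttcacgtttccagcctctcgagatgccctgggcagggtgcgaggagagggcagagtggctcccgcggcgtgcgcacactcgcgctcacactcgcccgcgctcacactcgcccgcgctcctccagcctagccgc
Gabra4: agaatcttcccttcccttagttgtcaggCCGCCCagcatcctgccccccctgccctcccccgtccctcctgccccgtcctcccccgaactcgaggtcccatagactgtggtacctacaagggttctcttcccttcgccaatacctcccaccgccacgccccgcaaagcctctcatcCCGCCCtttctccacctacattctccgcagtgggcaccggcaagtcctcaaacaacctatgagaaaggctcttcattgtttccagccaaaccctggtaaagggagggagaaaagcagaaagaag
The Gabra2 window has a GC content of 70.0% and that of Gabrg1 38.3%, with 66.0% for Gabrb1 and 58.7% for Gabra4, beside a median of 52.7% over 32851 promoters. Among the 40 windows found for 33 of the 49 members, TAATCC was present in those of Gabra2 and Gabrr2 only, and 7.06% of all promoters hold it. GGGCGG was present in 20 of the 40 windows and in 35.7% of all promoters, and TATAAA, the TATA box, in 5 of the 40 and in 13.6% of all promoters. The motifs were chosen after the sequences had been seen, and a match describes letters and not a bound site.

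On the arrays labelled Mrp4-null the log2 signal of Gabra2 was 9.17, 8.95, 9.14 and 9.12, while wild-type arrays gave 8.35, 8.21, 8.09 and 8.42. Every Mrp4-null array was above every wild-type array. The means were 9.10 ± 0.10 and 8.27 ± 0.15 (SD, n = 4 each), with a log2 fold change of 0.83 (SE 0.10, limma adjusted p = 0.00700). An exact two-sided permutation test gave p = 0.0286, the smallest that 4 against 4 arrays allow. With any 1 array left out the log2 fold change stayed between 0.77 and 0.89, and the adjusted p in limma between 0.0105 and 0.0387. With the sample number as a replicate block the fold change was unchanged, and the adjusted p in limma was 0.0979. Gabra2 had 1 probe on the array, so no second sequence was available to compare. In bulk tissue, more or fewer cells of a type and more or less RNA per cell cannot be told apart.

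Gabra4, encoding an alpha subunit that pairs with delta in receptors outside the synapse, had a fold change of the opposite sign. Its log2 signal was 9.15, 9.11, 8.92 and 9.12 on the Mrp4-null arrays and 9.21, 9.32, 9.31 and 9.43 on the wild-type arrays. There was no overlap between the genotypes, though the nearest arrays were at 9.15 and 9.21. The fold change of -0.24 (SE 0.09) did not pass (limma adjusted p = 0.571), and the exact permutation p was 0.0286. Gabrb1, a beta subunit, read 8.26, 8.04, 8.22 and 8.30 on the Mrp4-null arrays and 8.36, 8.40, 8.28 and 8.26 on the wild-type arrays, with overlap between the genotypes and a fold change of -0.12 (SE 0.08). Gabrg1, a gamma subunit, read 8.61, 8.02, 8.14 and 8.79 on the Mrp4-null arrays and 8.50, 9.02, 8.38 and 8.83 on the wild-type arrays. Its arrays spread widely in both genotypes, the fold change was -0.30 (SE 0.21), and a dimmer second probe gave 0.03 (SE 0.19). Gabra2 was thus the only gene of the cluster with a fold change above 0 by its brightest probe.

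**Figure D2:**
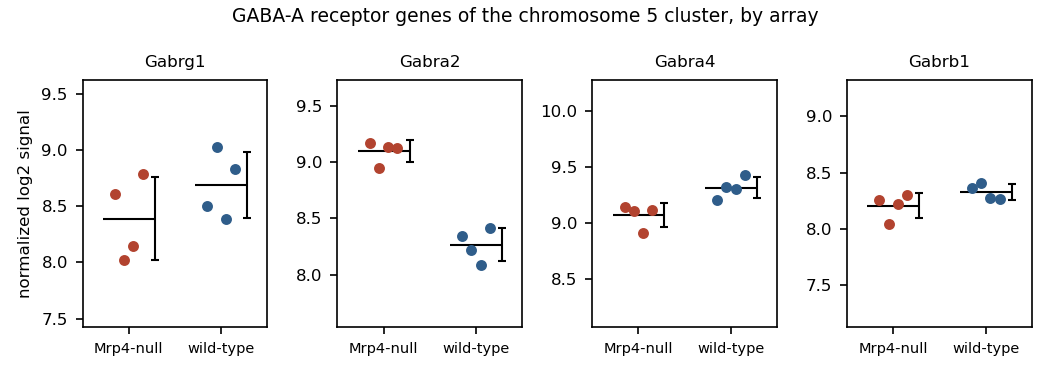
Normalized log2 signal of 4 GABA-A receptor genes of chromosome 5 on each array, with a horizontal line at the group mean and a bar of 1 SD (n = 4 each). Gabra2 reads 8.95 or more on the arrays labelled Mrp4-null and 8.42 or less on the wild-type arrays, whereas Gabra4 is below its wild-type arrays and Gabrg1 and Gabrb1 overlap.

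Within 5 Mb of Gabra2, 41 other genes were tested and 3 of them had a called probe, all lower on the arrays labelled Mrp4-null, beside 105 of all 16093 named genes tested. These were Uchl1, a neuronal deubiquitinase, with a log2 fold change of -0.67 (limma adjusted p = 0.0234), Nsun7 with -0.84 by 1 of its 2 probes (limma adjusted p = 0.0445) and -0.69 by the other (limma adjusted p = 0.327), and Atp8a1, a phospholipid flippase, with -0.71 by 1 of its 4 probes (limma adjusted p = 0.0325). The other 3 Atp8a1 probes gave -0.16 to -0.05. Within 10 Mb the count was the same 3 of 82 genes, and on the whole chromosome 5 of 998 other genes. Whether these calls share an origin with that of Gabra2 was not tested.

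None of the other GABA-A subunits passed. Of the 13 genes tested, 10 were below 0 and 3 above, with a median of -0.10. Gabra3, an alpha subunit, had a fold change of -0.12 by either probe, and Gabra5, known from extrasynaptic receptors, -0.09. The beta subunit Gabrb2 gave -0.09 and the gamma subunit Gabrg3 -0.13. Gabrd, the delta subunit of tonic receptors, gave -0.10, and Gabrq, a theta subunit, -0.23 with a standard error of 0.28. For all of these the arrays of the genotypes overlapped. Gabra6, best known from cerebellar granule cells, and Gabre, an epsilon subunit, were not well above background on any array, and Gabrp, a pi subunit, was so on 3 Mrp4-null and 2 wild-type arrays, so these 3 genes were not tested. Second probes of Gabra5, Gabrq, Glra4, Grik2 and Grm4 were not tested either, being well above background on 0 to 6 arrays.

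The rho subunits form GABA-gated channels of their own, which in the retina sit mainly on bipolar cell axons. Gabrr1 was the steadiest member: the probe with the smallest spread read 12.18, 12.12, 12.00 and 12.13 on the Mrp4-null arrays and 12.05, 12.11, 12.12 and 12.15 on the wild-type arrays. Both genotypes lay on top of each other, with an SD within genotypes of 0.06 and a fold change of 0.0017 (SE 0.07), and the brighter probe gave 0.04. Gabrr2 read 10.21, 10.61, 10.33 and 10.19 on the Mrp4-null arrays and 10.16, 10.12, 10.46 and 10.17 on the wild-type arrays, where sample 2 of the former and sample 3 of the latter were highest. Its fold change was 0.11 (SE 0.12, limma adjusted p = 1.00), with 0.02 when Mrp4-null sample 2 was left out and 0.19 when wild-type sample 3 was. Gabrr3 gave -0.03 (SE 0.25).

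Glycine receptors combine alpha subunits with Glrb, the beta subunit that binds the scaffold gephyrin. Glrb itself gave a fold change of -0.16 (SE 0.08) by its brighter probe and -0.15 by the other. The genotypes overlapped, and the difference did not pass (limma adjusted p = 0.868). Among the alpha subunits, Glra1 gave 0.16 and 0.03 by its probes, Glra2 -0.04 and Glra3 -0.06. Glra4, the alpha subunit with the smallest p, read 4.87, 5.16, 5.10 and 4.97 on the Mrp4-null arrays and 4.67, 4.71, 4.56 and 5.00 on the wild-type arrays. Only wild-type sample 4 reached the Mrp4-null range, and the fold change of 0.29 (SE 0.11) did not pass (limma adjusted p = 0.675) and was 0.07 after normexp background correction.

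Kainate receptors shape the response of OFF bipolar cells to the glutamate of cones. Grik3, a kainate subunit on chromosome 4, had the highest fold change after Gabra2, with 8.52, 8.16, 8.66 and 8.54 on the Mrp4-null arrays and 7.97, 8.21, 7.87 and 8.08 on the wild-type arrays. Of the Mrp4-null arrays only sample 2, the dimmest array of the series, fell within the wild-type range. The fold change was 0.44 (SE 0.13), which did not pass (limma adjusted p = 0.351, exact permutation p = 0.0571). The other kainate subunits were nearer to 0: Grik1, the subunit of many OFF bipolar cells, gave -0.07, Grik2 -0.04, Grik4 -0.07 and Grik5 0.11. Dimmer probes gave -0.24 and -0.09 for Grik1, -0.16 for Grik2 and, with the opposite sign, -0.09 for Grik5. AMPA receptors carry most fast excitation in the inner retina. Gria1 read 10.87, 10.94, 11.13 and 10.77 on the Mrp4-null arrays and 10.79, 10.65, 10.74 and 10.59 on the wild-type arrays, with Mrp4-null sample 4 just under wild-type sample 1. Its fold change was 0.24 (SE 0.10, limma adjusted p = 0.707). Gria2, the subunit that keeps calcium out of the channel, gave 0.06, Gria3 0.02 and Gria4 -0.02. The dimmer Gria3 probe gave -0.05.

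NMDA receptors need the subunit Grin1 together with Grin2 or Grin3 subunits, and they contribute to the excitation of ganglion and amacrine cells. Grin2c was the NMDA gene with the smallest p, by the dimmer of its probes. That probe read 7.47, 7.59, 7.51 and 7.35 on the Mrp4-null arrays and 7.09, 7.08, 7.29 and 7.15 on the wild-type arrays. There was no overlap between the genotypes, with a fold change of 0.33 (SE 0.09, limma adjusted p = 0.275, exact permutation p = 0.0286). The brighter Grin2c probe read 7.66, 7.81, 7.77 and 7.50 on the Mrp4-null arrays and 7.53, 7.37, 7.71 and 7.61 on the wild-type arrays. It overlapped between the genotypes and gave 0.13 (SE 0.10), so that the probes of Grin2c shared a direction but not its size.

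Grin1 was the gene whose probes lay farthest apart. The bright probe gave a fold change of -0.0024 (SE 0.16), while the dim one gave -0.40 (SE 0.30). The dim probe read 4.87, 5.48, 4.84 and 4.26 on the Mrp4-null arrays and 5.41, 4.70, 5.89 and 5.04 on the wild-type arrays, with a spread in each genotype wider than the difference, which was -0.14 after normexp background correction. A dim Grin2b probe had the largest SD within genotypes of any member, 0.58, from 4.06, 5.69, 5.02 and 4.56 on the Mrp4-null arrays and 4.60, 4.62, 5.56 and 4.91 on the wild-type arrays. It was highest on Mrp4-null sample 2 and wild-type sample 3, and its fold change was -0.09 beside 0.11 for the brighter Grin2b probe. Grin2a gave -0.01, Grin2d -0.09, Grin3a -0.03 and Grin3b 0.12. Of the 19 members with several tested probes, 14 had probes of the same sign, and the probes differed by more than 0.2 in 3 genes, Grin1, Gabrg1 and Grin2c.

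The delta receptors bind cerebellins and organise synapses more than they conduct. The member described here, Grid1, was among those with wide spread. It read 5.33, 4.20, 4.68 and 4.92 on the Mrp4-null arrays and 5.45, 5.29, 5.23 and 4.72 on the wild-type arrays, with overlap between the genotypes. Its fold change of -0.39 (SE 0.25) did not pass (limma adjusted p = 0.989). It was -0.20 without Mrp4-null sample 2 and -0.07 after normexp background correction, so Grid1 was not the lowest member under those settings.

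Metabotropic receptors tune release and excitability. Grm5, which is coupled to Gq, gave -0.06. Grm2 and Grm3, which lower cyclic AMP, gave 0.08 and -0.19, the latter with a standard error of 0.28. Grm4, Grm7 and Grm8, receptors of presynaptic terminals, gave 0.13, -0.07 and 0.09. Grm8, with the smallest p of the group, read 10.61, 10.49, 10.73 and 10.71 on the Mrp4-null arrays and 10.71, 10.45, 10.49 and 10.51 on the wild-type arrays. There was overlap between the genotypes (limma adjusted p = 1.00).

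**Figure D3:**
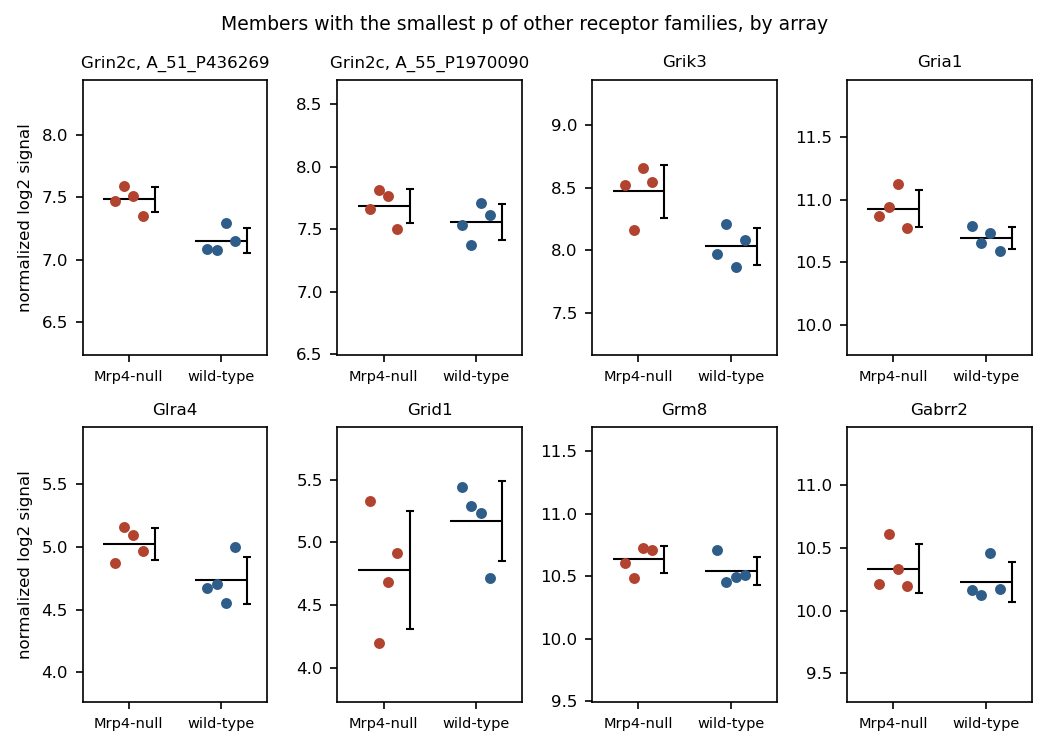
Normalized log2 signal on each array for both probes of Grin2c and for Grik3, Gria1, Glra4, Grid1, Grm8 and Gabrr2, with a line at the group mean and a bar of 1 SD (n = 4 each). The Grin2c probe A_51_P436269 separates the genotypes while A_55_P1970090 does not, and Grik3 overlaps through 1 Mrp4-null array at 8.16 and 1 wild-type array at 8.21.

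By position, members on chromosomes 4, 8 and 14 were set apart because earlier results of these data had called probes gathering there. The counts of called probes on these chromosomes are not given here. The members there were Gabrd, Gabrr1, Gabrr2, Grik3 and Grin3a on chromosome 4, Glra3 on chromosome 8 and Grid1 on chromosome 14, the chromosome of Abcc4. None of the 7 was called, and their median fold change was -0.03 with 3 above 0. The 39 members elsewhere had a median of -0.03 with 16 above 0, and 1 was called. The 5 tested members on the X chromosome, Gabra3, Gabrq, Glra2, Glra4 and Gria3, lay between -0.23 and 0.29.

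Some receptor families deviated in the same direction on the dimmest arrays. On Mrp4-null sample 2 and wild-type sample 3 the AMPA genes had median deviations of -0.21 and -0.15 from their own means, and the NMDA genes 0.19 and 0.09. On the same arrays the GABA-A genes had -0.12 and 0.0031, the kainate genes -0.0083 and -0.22, the metabotropic glutamate genes 0.09 and 0.04, and the glycine genes 0.13 and 0.03, so the families did not all move one way. For 12 members both of these arrays were the lowest of their genotype, among them Gria2, Gria3, Gria4, Gabrb2, Glrb and also Gabra2. For 9 members both were the highest of their genotype, among them Grin1, Grin2b, Grin2c, Grm2 and Grm4. Over all named genes the shares were alike, 26.4% against 26.1% of members for the lowest and 18.8% against 19.6% for the highest. Each genotype held 1 of these arrays, and Gabra2 read 8.95 on the Mrp4-null one and 8.09 on the wild-type one. The part of array brightness in the values of the members was not tested.

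**Figure D4:**
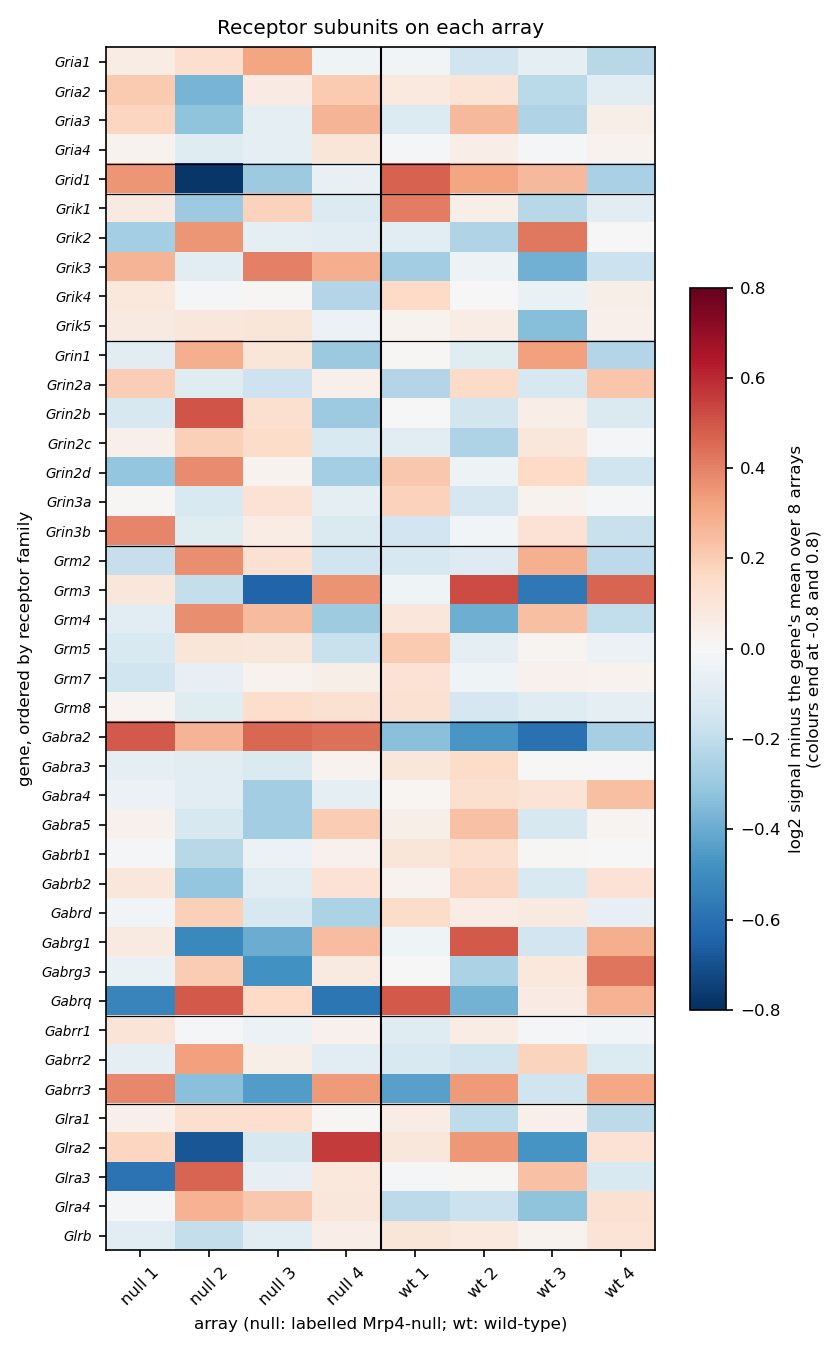
Deviation of 41 of the 46 genes, each from its own mean over 8 arrays, in log2 units, with genes in order of family and colours that end at -0.8 and 0.8. The row of Gabra2 is positive on all 4 arrays labelled Mrp4-null and negative on all 4 wild-type arrays, while most other rows change sign within a genotype.

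**Figure D5:**
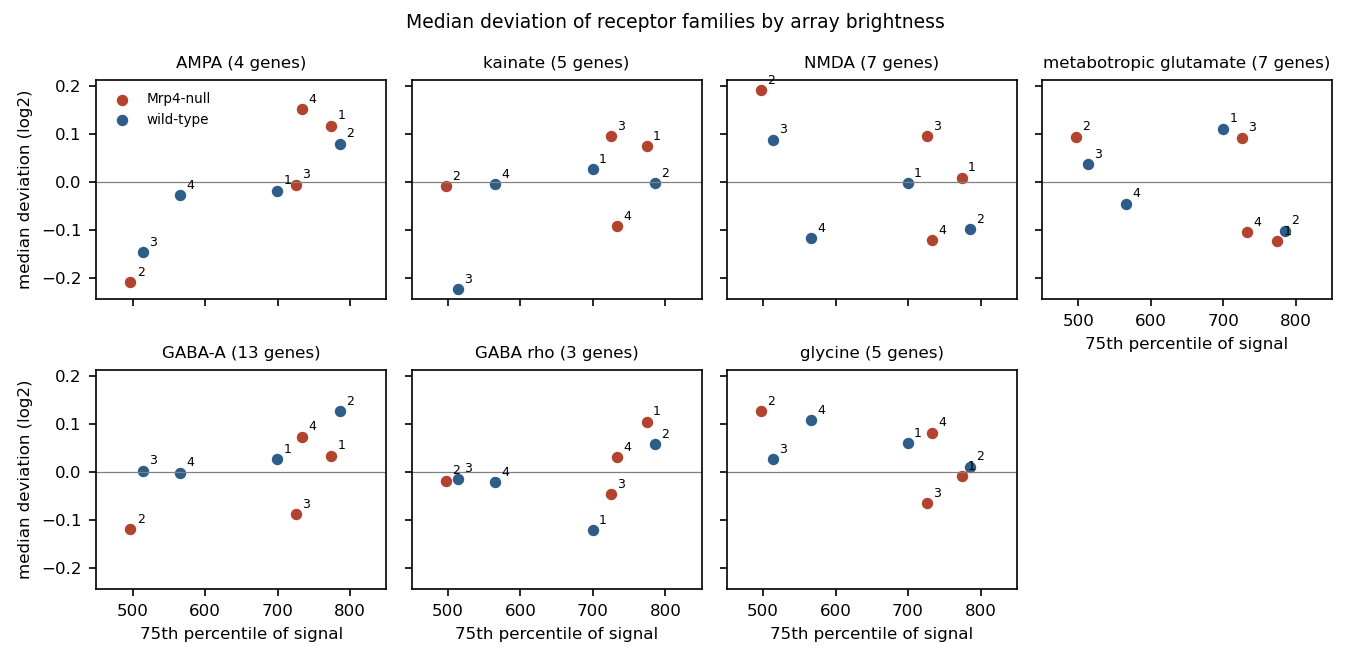
Median deviation of 7 receptor families on each array (log2 units) against the 75th percentile of the processed signal, with points numbered by sample. The AMPA genes are at -0.21 and -0.15 and the NMDA genes at 0.19 and 0.09 on the arrays with signal of 497 and 514, and in both panels the colours are mixed.

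Markers of retinal cell types were read beside these values. The 10 amacrine markers had a median fold change of 0.02, with mean log2 signals of 11.73 to 11.87 on the Mrp4-null arrays and 11.78 to 11.84 on the wild-type arrays. The 8 bipolar markers had a median of 0.07 with 6 above 0, and the 4 horizontal cell markers -0.04. The 7 cone markers had a median of -0.06 with 2 above 0, and the 7 Muller glia markers -0.05 with 3 above 0. In each of the bipolar, cone and Muller glia lists 1 gene had an unadjusted p under 0.05 in limma, beside 6.60% of all named genes, and none was called. The 10 ganglion cell markers had a median of -0.14 with 1 above 0. None was called by limma, where 2 of 10 had an unadjusted p under 0.05 beside 6.60% of all named genes, or by the local pooled error test that the methods name, and their mean log2 signal was 11.41 to 11.52 on the Mrp4-null arrays and 11.56 to 11.66 on the wild-type arrays, without overlap. For lens genes, 14 of 15 were tested, the median was -1.39 and none was above 0. None of the lens genes was called by limma, where 4 of 14 had an unadjusted p under 0.05 beside the same 6.60%, whereas the local pooled error test called 12 of them with adjusted p and 13 with p as given, rules met by 0.626% and 1.43% of all tested probes. For 8 pigment epithelium markers the median was 0.19 with 6 above 0, and their mean log2 signal was 6.91 to 7.41 on the Mrp4-null arrays and 6.82 to 7.40 on the wild-type arrays. For 5 blood genes the median was 0.17 with all above 0, and the mean ran from 10.25 to 11.26 and from 10.23 to 11.25. None of the pigment epithelium or blood markers was called by limma or had an unadjusted p under 0.05. The part of the ganglion cell, lens, pigment epithelium and blood markers in the values of Gabra2, Gabra4 and Grin2c was not tested.

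Proteins that work with the receptors were taken from 3 lists of 83 genes, of which 80 were tested. None was called in either direction by limma or by the local pooled error test. An unadjusted p under 0.05 in limma was seen for 6 of the 80 genes (7.50%), beside 6.60% of all named genes, and no overlap of the genotypes for 4 genes (3.31% of the partner probes), beside 4.79% of all tested probes. Among 35 scaffolds and auxiliary subunits of glutamate receptors the median fold change was 0.02 with 20 above 0, and this list held 5 of the 6 genes and all 4 without overlap, the latter out of its 55 probes. The smallest p belonged to Cacng7, an auxiliary subunit of AMPA receptors, which read 7.30, 7.18, 7.33 and 7.08 on the Mrp4-null arrays and 7.67, 7.51, 7.70 and 7.52 on the wild-type arrays. Each Mrp4-null array lay below each wild-type array, with a fold change of -0.38 (SE 0.09, limma adjusted p = 0.188). The other genes without overlap, named after their values were seen, were Cbln1, a cerebellin that binds delta receptors, at -0.25 (limma adjusted p = 0.304), Lrfn2, a synaptic adhesion molecule, at 0.26 (limma adjusted p = 0.450), and Shank1, a postsynaptic scaffold, at 0.21 (limma adjusted p = 0.557).

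Among 21 partners of GABA and glycine receptors the median was -0.04 with 8 above 0, and none reached an unadjusted p of 0.05 in limma. Lhfpl3 had the smallest p at -0.34 (limma adjusted p = 0.851). Gphn, the scaffold gephyrin, gave -0.08, and the metabotropic GABA-B subunits Gabbr1 and Gabbr2 gave -0.09 and -0.14. Among 24 genes of transmitter synthesis, packaging and uptake the median was 0.01 with 13 above 0. Gad1 and Gad2, the enzymes that make GABA, gave -0.06 and 0.14, the vesicular carriers Slc32a1 and Slc17a7 gave 0.02 and -0.02, and the glycine transporter Slc6a9 gave 0.08. Shmt1, which makes glycine from serine, had the smallest p at -0.31 (limma adjusted p = 0.729).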

How the data were processed

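Retinal RNA of 4 Mrp4-null and 4 wild-type samples, so labelled, was hybridized to one-color Cy3 arrays. The authors deposited the scanner output (Agilent Feature Extraction 11.0.1.1), in which the signal intensity of a spot is background-subtracted and detrended within its array but not normalized across arrays, and the deposited table of the series holds the same intensities. From these, control spots and spots marked as outliers (78 to 143 per array) were left out, and log2 intensities were averaged for each probe, which was tested when well above background on each measured array of 1 genotype or more, with at least 3 measured there and 2 in the other, which left 37085. After quantile normalization, limma 3.58.1 in R 4.3.3 was fitted on genotype alone, with Benjamini-Hochberg adjustment over all 37085 probes. The local pooled error test (LPE) named in the methods was written anew here, so its calls are not those of the study. With p as given and adjusted it was an alternative, beside other normalizations, a normexp correction (offset 50), other filters, a replicate block and each array left out. Single genes also had an exact two-sided permutation test. The procedure was tested on simulated data. The number of arrays limits the precision.

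Genes were named by matching accessions to RefSeq (GRCm38.p6), which named 32994 of 56605 probes. The array design is of an older build, so probe positions are not given. Members, lists and motifs were chosen with earlier results of these data known. Values on each array are given for members called, members without overlap, the 3 highest and 3 lowest fold changes, the smallest p of each family (GABA-A alpha, beta and gamma subunits taken separately), the largest and smallest spread, and genes whose probes differ most. Some members are not reported here.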

Additional observations from a re-analysis of the deposited data

Results flagged for a closer look

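For 32 groups of 4 arrays, those of each genotype for the 15 member probes with values on each array and for the 75th percentile of the signal, the distance of the highest or lowest array to its nearest neighbour was divided by the range of the group. In 1 group this ratio was above Dixon's critical value for 4 values. It was Gabrr2, where wild-type sample 3 read 10.46 and the other wild-type arrays at most 10.17 and at least 10.12, a ratio of 0.857. Chance alone gives about 1 such group in 20. Wild-type sample 3 was among the dimmest arrays of the series, and its part in this value was not tested.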

How the results depend on the processing

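For 12 single members, each under its alternative settings, 227 of 228 values kept the direction and the call and 0 reversed, though sizes moved, as given above for Grid1, Glra4 and Gabrr2. With 1 array left out, Gabrg1 ran from -0.43 to -0.17, Gabrb1 from -0.15 to -0.07, Grm8 from 0.06 to 0.15 and the dim Grin1 probe from -0.62 to -0.19. The exception was Gabra2 with the sample number as a replicate block, where the log2 fold change stayed at 0.83 and the adjusted p in limma became 0.0979, so that 0 member probes and 0 member genes were called. Across all alternatives its log2 fold change lay between 0.70 (normexp) and 0.89, and the adjusted p in limma or LPE between 0.00309 and 0.0979. The sources used here do not say whether the sample numbers pair the samples. Deviations of same-numbered samples from their genotype means had correlations of -0.29, -0.69, 0.03 and 0.41. Between Mrp4-null sample 2 and wild-type sample 3, the dimmest arrays, the correlation was 0.71. Such values follow array brightness too, so they cannot decide whether the samples are paired. The median fold change of the members ranged from -0.05 to -0.0022, and the partner lists had 0 called genes under every alternative run. Of all tested probes, 202 were called, 71 with the replicate block, 532 with the unadjusted p of LPE, and 699 by fold change without a test. With 1 array left out the count ran from 117 to 188, with 131, 129 and 117 without wild-type samples 2, 3 and 4, and the member count stayed at 1. The cause was not tested. Naming probes by a gene name in the scanner output was not run, because those files carry accessions only. The fold changes of Grik3 and Grin2c lay under the minimum of 1.5 and did not pass the adjustment over all probes.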
